A study of Mus musculus with 29 samples.

Results

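Ovalbumin (OVA) challenge was examined in the offspring of dams that had been exposed to PM2.5, airborne particles small enough to reach the alveoli. Percent DNA methylation (DNAm) in lung was compared between PM-OVA offspring (n = 8) and PM offspring (n = 7), which are 15 of the 29 libraries of the series. Every offspring was a female Balb/c mouse of 13 weeks whose dam received PM2.5 from before mating until weaning. PM-OVA offspring were sensitised with OVA and alum and then challenged with nebulised OVA, whereas PM offspring received nebulised saline, and all had been given methacholine for lung function testing before the lung was taken. DNA came from one lobe of the right lung, labelled RML, and was profiled by whole-genome methyl-sequencing (WGMS). The members are the windows of the deposited gene table on chromosomes 1 to 19 with a value in all 15 libraries, which were 250466 of the 260686 windows in the table. A window is a stretch of gene sequence with a median of 50 CpG dinucleotides and a median length of 4713 bp, so that short windows are rich in CpGs and long windows are poor in them. The windows carried the names of 36027 genes, although 14.8% overlapped at least 2 annotated genes. The dam of each library is not given in the labels, so p-values below treat the libraries as independent animals.

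DNAm is the addition of a methyl group to cytosine, mostly where a guanine follows (CpG). In most mammalian tissue, CpGs within genes and between them are largely methylated, while CpG-rich promoters are kept free of it. Regions that regulate genes in a given cell type tend to lose DNAm in that cell type and keep it in others, so that whole lung measures an average over all cells present. OVA sensitisation and challenge is a standard model of allergic airway disease (AAD), in which eosinophils and lymphocytes enter a lung that is otherwise made up largely of endothelial, alveolar and mesenchymal cells. In these bulk samples a change in the share of a cell type and a change of DNAm within its cells cannot be told apart.

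A differentially methylated region (DMR) was defined as a window with an adjusted p under 0.05 (limma) and a difference of at least 10 percentage points between the group means. The central 200 bases of 6 windows are printed, with 3 windows that gained DNAm after OVA followed by 3 that lost it. They are examples picked from the 10 largest rises and the 10 largest falls, without the largest of either. They are given 5′ to 3′ on the plus strand of GRCm38, in lower case with every CpG in capitals. The Gfi1 stretch is chr5:107721453-107721652, within the coding exons of a transcriptional repressor of blood cell development.
Gfi1: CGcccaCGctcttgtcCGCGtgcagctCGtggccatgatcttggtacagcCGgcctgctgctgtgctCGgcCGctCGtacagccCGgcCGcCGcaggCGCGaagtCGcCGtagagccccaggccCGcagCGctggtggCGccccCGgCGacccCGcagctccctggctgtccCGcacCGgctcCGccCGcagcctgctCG
The Carmil2 stretch is chr8:105693993-105694192, in an actin regulator used by T cells.
Carmil2: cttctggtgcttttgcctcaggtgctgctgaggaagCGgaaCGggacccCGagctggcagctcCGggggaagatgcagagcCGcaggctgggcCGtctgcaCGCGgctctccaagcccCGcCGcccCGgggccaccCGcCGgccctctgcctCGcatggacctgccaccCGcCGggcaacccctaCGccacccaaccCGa
The Snx20 stretch is chr8:88627633-88627832, in the coding sequence of a sorting nexin of blood cells.
Snx20: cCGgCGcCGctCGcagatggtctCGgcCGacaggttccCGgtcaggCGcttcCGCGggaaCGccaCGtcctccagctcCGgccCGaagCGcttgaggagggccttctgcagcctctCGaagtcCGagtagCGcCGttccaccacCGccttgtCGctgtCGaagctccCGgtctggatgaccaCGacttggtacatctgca
The Mir142hg stretch is chr11:87756175-87756374, in the host gene of the blood cell microRNA miR-142.
Mir142hg: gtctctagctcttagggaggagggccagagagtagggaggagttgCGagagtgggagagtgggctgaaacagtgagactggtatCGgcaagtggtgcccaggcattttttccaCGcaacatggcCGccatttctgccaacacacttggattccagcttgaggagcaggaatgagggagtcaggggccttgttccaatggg
The Ikzf1 stretch is chr11:11689699-11689898, in an intron of the gene for the lymphoid factor Ikaros.
Ikzf1: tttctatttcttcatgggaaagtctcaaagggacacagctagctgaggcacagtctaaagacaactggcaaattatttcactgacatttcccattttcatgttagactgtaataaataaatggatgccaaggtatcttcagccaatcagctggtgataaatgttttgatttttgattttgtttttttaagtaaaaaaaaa
The Kifbp stretch is chr10:62543155-62543354, in an intron of a kinesin-binding protein gene.
Kifbp: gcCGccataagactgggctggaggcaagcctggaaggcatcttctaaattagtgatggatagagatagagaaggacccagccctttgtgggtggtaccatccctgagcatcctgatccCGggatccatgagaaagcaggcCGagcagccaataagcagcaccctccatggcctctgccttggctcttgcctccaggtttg
Of these 6 windows, the 3 that gained were the denser in CpGs, but these 3 were also the densest of the 10 largest rises. The median was 59.2 CpGs per kb over the 10 largest rises and 16.2 over the 10 largest falls. Gfi1, Carmil2 and Snx20 held 131, 92.6 and 136 CpGs per kb in the whole window, whereas Mir142hg, Ikzf1 and Kifbp held 27.8, 12.1 and 16.8. Not all large changes were of this kind, since the largest HoxA rise had 50 CpGs in 1715 bp and a fall at Plekhh3 had 50 in 681 bp. Over all DMRs the median was 18.9 CpGs per kb for those that rose and 13.96 for those that fell, against 10.7 for all windows. The Mir142hg window also contains the microRNAs themselves, whose mature sequences in RefSeq (GRCm38.p6) are printed with the seed, bases 2 to 8, in capitals. The 3 share no seed.
mmu-miR-142a-5p: cAUAAAGUagaaagcacuacu
mmu-miR-142a-3p: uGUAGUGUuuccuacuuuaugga
mmu-miR-142b: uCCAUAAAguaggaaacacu

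The libraries of a group were alike, with Pearson correlations across windows of 0.995 to 0.997 among PM and of 0.995 to 0.996 among PM-OVA libraries, against 0.988 to 0.994 between the groups. No 2 libraries were identical, and 31 to 46 of 1230 Y chromosome windows had a value in each of the 15 libraries. Of the PM-OVA libraries, replicates 7 and 8 carry a different library name (Rel), and the labels do not say how they differ. The study describes high coverage of the genome in each library, but the table gives no depth for a single value, so the spread between libraries is used as its error. Windows nearest the start of marker genes fell at Ptprc, the pan-leukocyte gene CD45, from 68.1% ± 1.75 (SD, n = 7) to 51.6% ± 2.70 (SD, n = 8). In contrast, Cdh5 of endothelium rose from 55.4% ± 2.18 to 62.4% ± 3.17, and Ager and Hopx of alveolar type I cells rose by 3.98 and 5.65 points (limma, adjusted p from 1.08e-07 to 0.00484 for these 4 genes). At Siglecf of eosinophils the window fell by 4.72 points and at Csf1r of macrophages by 3.77, while Col1a1 of fibroblasts rose by 4.25. The windows at Cd3e, Sftpc, Sftpb, Abca3, Pdpn, Scgb1a1, Foxj1 and Acta2, of T cells, alveolar type II and type I, club, ciliated and smooth muscle cells, did not pass the test, and nor did those at Alb, Apoa1, Ttr and Myh6, genes of other organs.

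The mean level of DNAm was lower in PM-OVA than in PM offspring, and the difference was larger in longer, CpG-poorer windows. The mean over all windows had a low of 68.7%, a median of 69.2% and a high of 70.1% in the PM libraries, and a low of 67.8%, a median of 68.3% and a high of 68.9% in the PM-OVA libraries. All 8 PM-OVA libraries were below the PM mean and 5 were below the lowest PM library. The means were 69.3% ± 0.463 (SD, n = 7) and 68.4% ± 0.391 (SD, n = 8), a difference of -0.961 points (2-sided exact permutation test over libraries, p = 0.00109, adjusted over 8 window types p = 0.00174).

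The size of the difference went with window length. In the longest quartile (over 6826 bp) the mean fell by 1.999 points, from 77.1% ± 0.586 to 75.1% ± 0.501, and all 8 PM-OVA libraries were below the lowest PM library (exact permutation p = 0.000155, the smallest this design can give; adjusted p = 0.00124). In the quartile of 4714 to 6826 bp it fell by 1.24 points (exact permutation p = 0.000466), and in that of 3284 to 4713 bp it fell by 0.693 points (exact permutation p = 0.00948). In the shortest quartile (up to 3283 bp) the group means were 47.5% ± 0.306 and 47.6% ± 0.253, a difference of 0.0872 points that did not pass the test (exact permutation p = 0.557), and the groups overlapped throughout. Single windows of that quartile still changed, with 17.5% higher and 16.8% lower at an adjusted p under 0.05. When the median over windows was taken in place of the mean, the shortest quartile rose by 0.956 points (exact permutation p = 0.00699). Position in the gene made less difference, since promoter windows fell by 0.891 points, windows with an exon and no promoter by 0.746 and windows of introns alone by 1.27 (exact permutation p of 0.000777, 0.00357 and 0.000777).

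**Figure D1:**
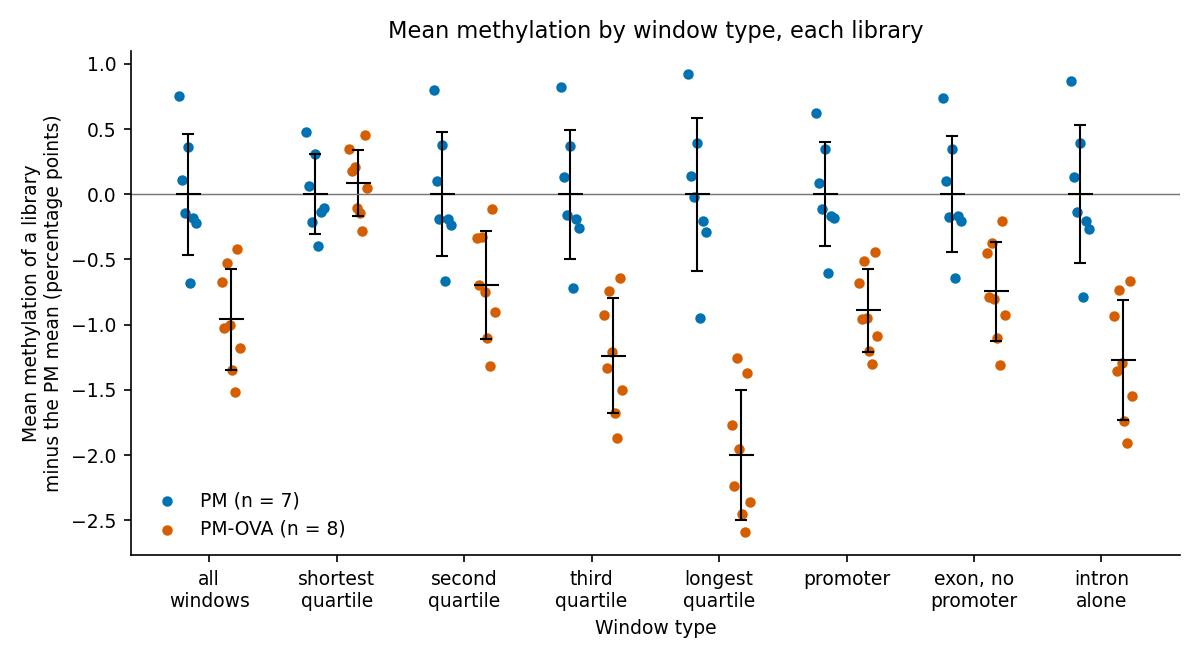
Mean methylation of each library minus the PM mean, in percentage points, for all windows, the 4 quartiles of window length, and windows with a promoter, with an exon but no promoter, or in introns alone. Points are libraries and bars are the group mean with SD; the 8 PM-OVA libraries overlap the PM libraries in the shortest quartile and lie below all of them in the longest, where the means differ by -1.999 points.

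Of the 250466 windows tested, 679 were DMRs with higher DNAm after OVA (0.271% of windows) and 819 were DMRs with lower DNAm (0.327%). They carried the names of 478 and 643 genes, 48 of which had DMRs in each direction. All PM-OVA libraries lay above all PM libraries in 4284 windows (1.71%) and below them in 26447 (10.6%), and these included 503 of the DMRs that rose and 770 of those that fell. The difference reached 20 points or more in 43 DMRs, of which 31 rose and 12 fell. The 10-point minimum cut through a dense range, as 474 DMRs had a difference of 10 to 11 points and 680 windows that passed the test had one of 9 to 10. With no minimum, 24340 windows were higher (9.72%) and 87613 were lower (35.0%).

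Because the mean level fell, each library was also centred by subtracting the median deviation of its windows. The centring added 0.957 points to every difference, and the counts of small changes then became near equal, with 48417 windows higher (19.3%) and 48134 lower (19.2%). DMRs were altered less, to 988 higher (0.394%) and 567 lower (0.226%). All 679 DMRs that rose were kept and 309 were added, 252 of those that fell dropped out and 567 were kept, and 0 changed direction. The balance of higher against lower calls therefore depends on centring. A shift of 0.957 points is smaller than the minimum difference of a DMR, so it could not reverse any DMR and could only enlarge a rise. Whether the direction of the large changes described below is robust was thus not tested by centring.

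DMRs that rose and DMRs that fell came from different kinds of window. Windows that rose had a median DNAm of 43.9% in PM and 56.5% in PM-OVA offspring, and those that fell went from 69.4% to 56.6%, so both ended at an intermediate level. Their median lengths were 2654 bp and 3587 bp against 4713 bp for all windows. The shortest quartile held 467 of the DMRs that rose and 314 of those that fell, while the longest held 10 and 34. Promoters were in 20.3% of DMRs that rose, 25.4% of those that fell and 22.8% of all windows. Protein-coding genes named 92.2%, 87.4% and 82.4%.

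Direction followed the level of a window, here taken as the midpoint of the group means so that neither group decides it. Among windows at 80 to 90%, 6.57% were higher and 44.9% lower after OVA, and above 90% it was 3.11% and 31.1%, while at 10 to 20% it was 21.6% and 15.6%. In the lowest class, under 10%, 17.2% were higher and 4.09% lower, with a median difference of only 0.0650 points. DMRs that rose were most frequent at 20 to 60%, with 150 at 20 to 40% and 373 at 40 to 60%. After centring, the same order remained, with 39.0% higher and 7.05% lower at 10 to 20% against 14.6% and 29.2% at 80 to 90%. Adding a near constant to windows close to 0% makes almost all of them positive, so the centred values of the lowest class cannot be read as a change. Length and level were not interchangeable. Among windows at 60 to 80%, the median difference was 0.129 points in the shortest quartile and -2.21 in the longest.

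**Figure D2:**
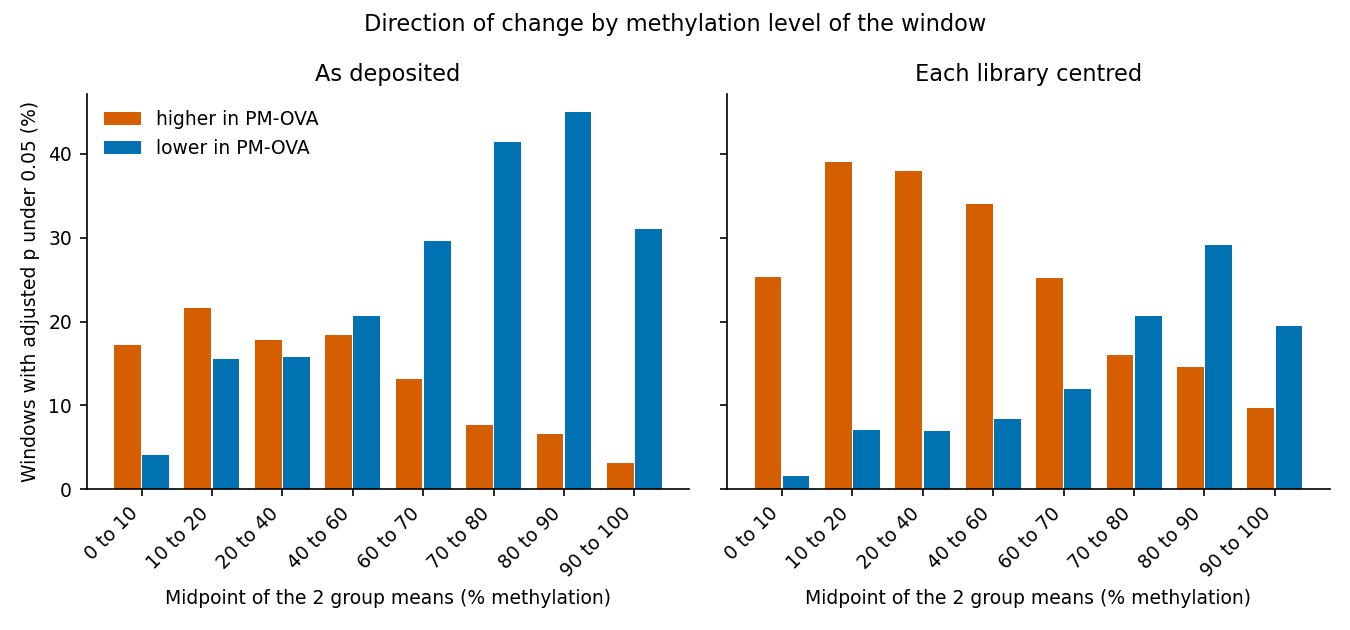
Percent of windows higher or lower in PM-OVA than in PM offspring (adjusted p under 0.05), by the midpoint of the 2 group means, as deposited and after centring each library. As deposited, the share lower goes from 4.09% in windows under 10% to 44.9% at 80 to 90% and 31.1% above 90%, while the share higher goes from 17.2% to 6.57% and 3.11%.

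The share of DMRs varied with distance from the gene start. Among windows of protein-coding genes, 0.303% were DMRs that rose and 0.347% were DMRs that fell. Of those centred 1 to 2 kb upstream of the start, 1 of 2321 rose (0.0431%) and 11 fell (0.474%), whereas within 500 bp upstream it was 12 (0.349%) and 10 (0.291%) of 3441. From 2 to 5 kb downstream, 97 of 13356 rose (0.726%) and 103 fell (0.771%), the highest share of DMRs at any distance. DMRs also lay side by side, since 191 of those that rose formed 77 runs of at least 2 neighbours and 193 of those that fell formed 88. Beside DMRs that rose, 78.5% to 79.5% of neighbours had a difference above 0, against 31.4% of all windows, with a median of 3.21 to 3.41 points. Beside DMRs that fell, 82.9% to 84.5% had one below 0, against 68.6% of all windows, with a median of -3.10 to -3.07 points.

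The largest rise was at Agap2, a GTPase-activating protein for Arf with roles in growth factor signalling. Its window chr10:127091453-127092214, in the last exons and 3′ untranslated region, had a low of 11.7%, a median of 24.7% and a high of 27.7% in PM libraries and of 39.5%, 51.4% and 56.3% in PM-OVA libraries. The groups did not overlap, and the difference was 27.0 points (22.8% ± 5.45 to 49.8% ± 5.10; limma, adjusted p = 2.27e-06). The whole gene behaved alike. All 10 Agap2 windows were higher, 8 as DMRs, with a median difference of 18.7 points, and the mean of those 8 DMRs went from 26.8 to 32.4% in PM libraries to 44.9 to 54.6% in PM-OVA libraries.

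The 10 largest rises were in windows of 360 to 1715 bp, and 8 of them overlapped coding sequence. Carmil2, which binds actin capping protein and serves T cell costimulation, went from a low of 15.03%, median of 17.9% and high of 24.8% to 36.8%, 45.4% and 51.8% (26.6 points; limma, adjusted p = 2.78e-07). Gfi1 went from 9.53%, 15.7% and 18.98% to 24.2%, 36.0% and 52.7% (22.9 points; limma, adjusted p = 8.83e-06). For Gfi1 the PM-OVA libraries were spread widely, but none reached down to the PM range. Its 3 neighbouring windows, chr5:107718680-107723386 together, were all DMRs that rose, by 17.8, 22.9 and 12.1 points. Snx20 rose from 12.1%, 17.1% and 20.6% to 29.4%, 38.7% and 51.0% (22.4 points; limma, adjusted p = 1.10e-06), although another of its 5 windows was a DMR that fell by 13.4 points. Fmnl1, a formin that elongates actin filaments in leukocytes, had a window that rose by 22.9 points, but of its 4 DMRs 2 rose and 2 fell, and one of these fell by 20.4 points. Of the others, 2700081O15Rik rose by 22.8 points, Eva1b by 21.98, Shisa8 by 21.98 and Rnf220, an E3 ubiquitin ligase, by 21.7. Of these 10 largest, only the HoxA window described below had groups that overlapped.

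The largest fall was at Bin2. This gene, which encodes a membrane-bending protein of leukocytes, had a low of 62.2%, a median of 67.8% and a high of 76.7% in PM libraries and of 28.9%, 43.6% and 48.1% in PM-OVA libraries in a window around its first exon (-25.8 points; limma, adjusted p = 2.92e-06). The Mir142hg window went from 52.5%, 60.3% and 65.5% to 27.3%, 34.4% and 37.9% (-25.3 points; limma, adjusted p = 3.34e-07). Rhoh, a GTPase of lymphocytes, went from 56.8%, 69.0% and 70.7% to 38.2%, 42.2% and 45.9% (-24.2 points; limma, adjusted p = 2.06e-07). In each of the 3 the highest PM-OVA library was below the lowest PM library. Cytip, which tempers leukocyte adhesion, fell by 24.8 points, Map3k14, the kinase of non-canonical NF-κB signalling, by 22.5 points and Ikzf1 by 22.2. Plekhh3 and Kifbp each fell by 21.7 points and Gm15518 by 20.6. The window named for Nf1, which fell by 21.1 points, also covers Evi2 and Evi2a, genes that lie inside an Nf1 intron.

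**Figure D3:**
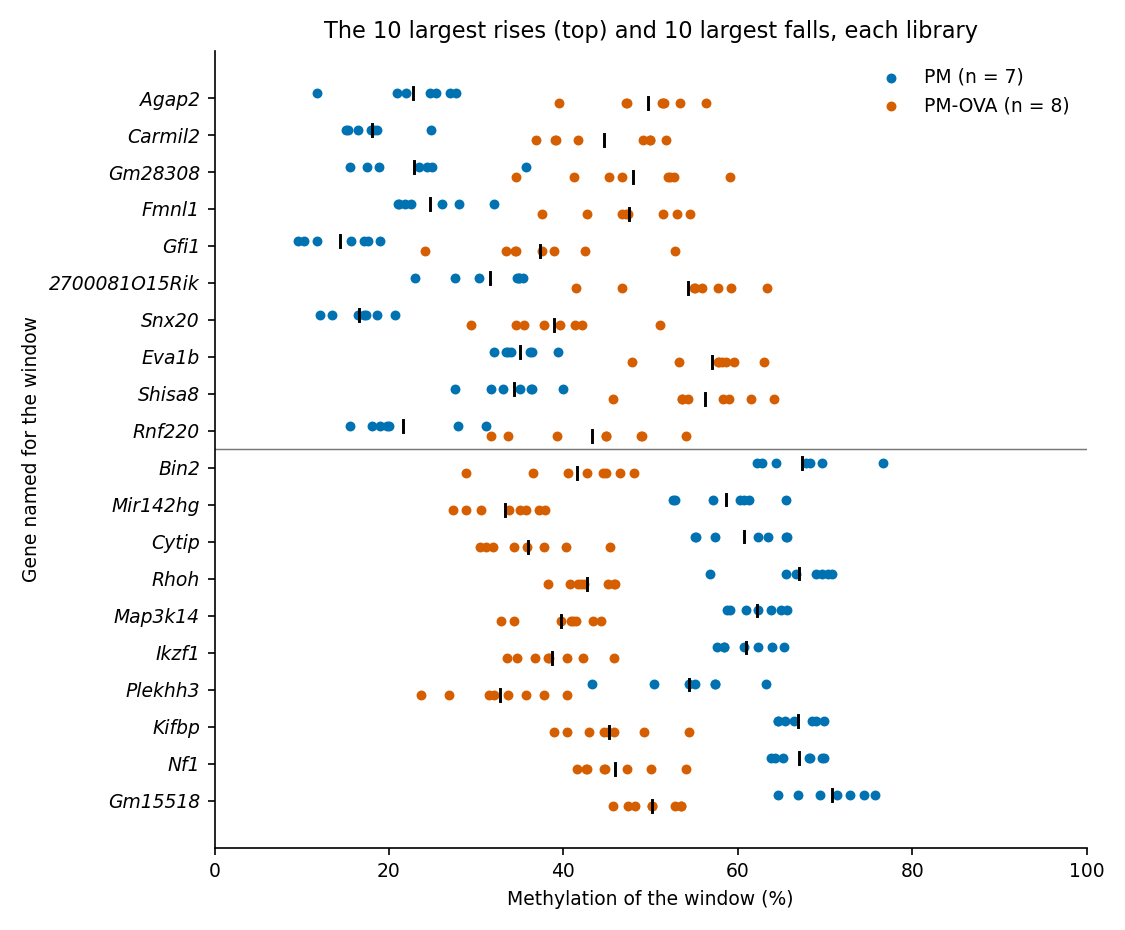
Methylation (%) in each PM (n = 7) and PM-OVA (n = 8) library of the windows with the 10 largest rises and the 10 largest falls, 1 window per gene, with group means as black bars. The groups overlap at Gm28308 alone, where the highest PM library is at 35.8% and the lowest PM-OVA library at 34.6%.

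The most extended change was in the HoxA cluster, whose homeobox genes pattern the embryo along its axis, with Hoxa5 known for its part in lung development. Of the 58 windows from Hoxa2 to Hoxa13 (chr6:52160850-52261037), 19 were DMRs that rose and 2 were DMRs that fell. All 19 lay in 1 block of 24 windows over 46093 bp from Hoxa2 to Hoxa6 (chr6:52160850-52206942), and no window of the block was lower at an adjusted p under 0.05. Most of these windows are named Gm28308, a predicted gene that overlaps Hoxa3, Hoxa4, Hoxa5 and Hoxa6. The mean over its 17 DMRs had a low of 25.1%, a median of 26.8% and a high of 34.3% in PM libraries and of 42.7%, 46.3% and 50.4% in PM-OVA libraries, so the groups did not overlap. The difference was 18.8 points, and single DMRs of the block rose by 10.95 to 25.04 points.

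The largest of them covers Hoxa5 (chr6:52201945-52203659) and went from 22.9% ± 6.74 to 47.9% ± 7.69 (limma, adjusted p = 1.98e-05). Both DMRs that fell lay beyond the Hoxa6 end of the block. Hoxa7 went from 39.3% to 27.8% and Hoxa9 from 47.9% to 36.2% (limma, adjusted p of 0.000177 and 0.000165). Those of the 58 windows under 5% in PM offspring differed by -1.53 to 0.763 points. From Hoxa10 to Hoxa13 no window was a DMR, although Hoxa10 had a window that rose by 8.88 points (limma, adjusted p = 1.20e-06). Over the Hox genes of all clusters 41.1% of 163 windows were higher and 9.82% lower, with a median difference of 1.03 points (1.98 after centring) against -0.998 (-0.0405 after centring) over all windows. Hoxb3 and Hoxb4 each had a DMR that rose, by 11.8 and 10.99 points.

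**Figure D4:**
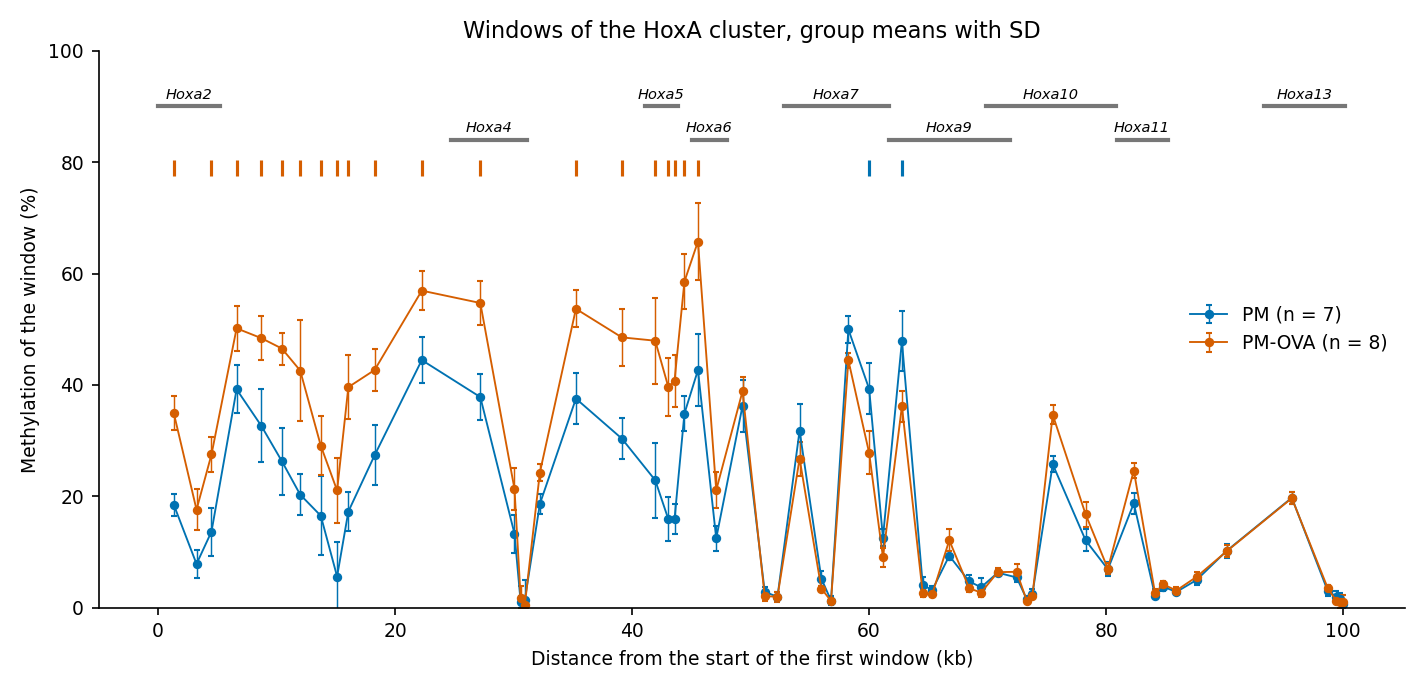
Mean methylation with SD of the 58 windows from Hoxa2 to Hoxa13 in PM (n = 7) and PM-OVA (n = 8) offspring, against distance from the start of the first window (kb). Grey bars span the windows that overlap each gene, and ticks mark DMRs (orange higher, blue lower); the PM-OVA line runs above the PM line from Hoxa2 to Hoxa6, except at 1 window near 0% (1.44% in PM and 0.528% in PM-OVA), and below it at the DMRs of Hoxa7 and Hoxa9.

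Smad7 and Smad6, which encode inhibitory Smads that limit TGF-β and BMP signalling, each had 6 DMRs that rose. At Smad7 the largest went from 24.4% ± 5.28 to 42.7% ± 3.07 (limma, adjusted p = 3.57e-06), and at Smad6 22 of 26 windows were higher. Lncppara, a long non-coding RNA, had 6 DMRs that rose, 5 of them in a row. Of the genes with most DMRs that fell, Lcp1 encodes L-plastin, which bundles actin in leukocytes. Its 5 DMRs were neighbours over 19727 bp, and their mean went from 60.3 to 65.3% in PM libraries to 46.6 to 50.9% in PM-OVA libraries. Fnbp1, which bends membranes at sites of actin assembly, had 6 DMRs that fell among 36 windows, and Tiam1, an exchange factor for Rac, had 6 among 127. The 5 that fell in Ubac2 include windows over Gpr18 and Gpr183, receptor genes of lymphocytes within it. Galnt2l had 8 DMRs that rose and 9 that fell among 1423 windows, and since this name spans several megabases of other genes, its DMRs belong to many loci. Its largest rise (14.5 points) lies in Piezo1.

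Gene lists for the cells of the lung differed in how their windows moved. Lists were read against all windows, of which 9.72% were higher and 35.0% lower (median difference -0.998 points), with 0.271% DMRs that rose and 0.327% DMRs that fell. Centring took some falls below 10 points, so that the DMRs that fell went from 30 to 26 in the haematopoietic list, from 2 to 1 in the T cell, from 5 to 3 in the B cell, from 3 to 2 in the myeloid and from 1 to 0 in the alveolar type I list, while those that rose went from 11 to 14 in the haematopoietic and from 12 to 23 in the endothelial list. For the haematopoietic list, genes used across blood cells, 24 of 26 genes had windows, and 40.6% of the 362 windows were higher and 28.2% lower, with 11 DMRs that rose and 30 that fell. By gene, 10 of the 24 had a median above 0 against 8111 of all 36005 gene symbols, and the median of the gene medians was -1.01 points against -1.14. Where a window lay mattered. Of its 43 promoter windows 58.1% were lower and 23.3% higher, against 30.6% and 8.75% of all promoter windows, with a median difference of -4.26 points, while of the other 319 windows 24.1% were lower and 42.9% higher, with a median of 1.397 points. Dock2, which moves lymphocytes by activating Rac, had 57 of the 147 windows that were higher, and without it 31.5% of 286 windows were higher and 33.9% lower, with a median of 0.0103 points. The mean level over the list was 68.3 to 69.6% in PM libraries and 68.2 to 68.8% in PM-OVA libraries, which overlap.

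Within single genes of that list the gene start and the body could part. Runx1, a master regulator of blood formation, had 3 DMRs that fell, the nearest to the start from 53.4% ± 5.66 to 34.1% ± 6.33 (limma, adjusted p = 4.67e-05). It also had 6 DMRs that rose further into the gene, the largest from 15.6% ± 3.85 to 36.0% ± 6.50 (limma, adjusted p = 7.70e-06). The mean over the 6 was 34.9 to 42.1% in PM and 52.3 to 55.5% in PM-OVA libraries, and that over the 3 was 54.5 to 63.9% and 42.7 to 52.1%. Neither pair of ranges overlapped. Runx3, a regulator of T cell fate, had 3 DMRs that rose (10.3, 13.4 and 14.8 points). Ptprc had 3 DMRs that fell, whose mean was 64.4 to 69.2% in PM and 52.2 to 56.3% in PM-OVA libraries. Cd52, Coro1a, Spn, Fermt3 and Laptm5, genes of leukocyte membranes and cytoskeleton, each had a DMR that fell by 14.5 to 18.8 points. Arhgap9, a GTPase-activating protein of blood cells, had a DMR that rose by 20.7 points.

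In the T cell and B cell lists, 1.03% and 2.86% of their windows were DMRs that fell, against 0.327% of all windows. Of 194 T cell windows 9.79% were higher and 38.7% lower, and the DMRs were 2 that fell, at Lat, the adaptor below the T cell receptor (67.1% ± 3.89 to 53.4% ± 2.63; limma, adjusted p = 5.7e-06), and Cd2. Of 175 B cell windows 13.1% were higher and 30.9% lower, but 63.6% of the 22 promoter windows were lower, and it had 5 DMRs that fell and 1 that rose. The factor genes Ebf1 and Pax5 held 129 of these windows and 21 of the 23 that were higher, and in the other 46 windows 4.35% were higher and 43.5% lower. Cd79b, a signalling chain of the B cell receptor, went from a low of 71.6%, a median of 73.1% and a high of 78.2% to 58.0%, 59.1% and 62.6% at its start (-13.9 points; limma, adjusted p = 1.25e-07), and a second window of it fell by 10.9 points. The Src family kinase gene Blk had 2 DMRs that fell by 13.1 and 13.5 points and Ighm, the IgM heavy chain, 1 that fell by 10.3. Against these, Pax5, the factor that fixes B cell identity, had a short window within the gene that went from 1.28%, 1.62% and 3.83% to 9.21%, 14.8% and 24.0% (13.4 points; limma, adjusted p = 5.67e-07). It overlaps the predicted gene Gm12462 and was 1 of only 2 DMRs with a midpoint under 10%.

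The list for type 2 immunity, the response of allergic disease, held the highest share of lower windows of the 18 lists, with 53.8% of 251 lower and 7.57% higher and a median difference of -2.30 points (-1.34 after centring). Rora, which supports innate lymphoid cells, had 106 of its 158 windows lower and so most of the 135 in the list. Without Rora, 31.2% of the other 93 windows were lower and 15.1% higher, with a median of -0.525 points (0.432 after centring), so the list's place rests on this gene. The cytokine genes fell by small steps, since all 3 Il4 windows and both Il13 windows were lower, with differences of -6.75 to -3.81 and of -5.06 to -3.94 points. Il5 had 1 of 2 windows lower, and Gata3, which directs type 2 T cells, 5 of 16. In contrast, Il4ra, the receptor for IL-4 and IL-13, had 6 of 10 windows higher. The list had 1 DMR in each direction. Rad50, whose introns hold control elements of the neighbouring type 2 cytokine genes, had a window that went from 86.4% to 74.7% (limma, adjusted p = 9.31e-08), and Ptgdr2, the prostaglandin D2 receptor of type 2 T cells and eosinophils, one that went from 21.3% ± 4.31 to 34.5% ± 6.62 (limma, adjusted p = 0.000539). At Ptgdr2 the groups overlapped, with PM libraries up to 25.5% and PM-OVA libraries down to 24.5%.

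Eosinophil genes had 31 windows, 45.2% of them lower. The granule protein genes Epx and Prg2 had all 4 and both of their windows lower, with differences of -9.22 to -3.68 points for Epx and of -7.62 to -6.47 points for Prg2, short of a DMR. The 3 DMRs of this list all rose and all lay in Gfi1, and of the 24 windows outside Gfi1 0 were higher and 58.3% lower. Of 62 myeloid windows 41.9% were lower, and 69.6% of the 23 in promoters. The list had 3 DMRs that fell and 1 that rose, of which Spi1, which encodes PU.1, had 2 that fell (11.7 and 16.8 points) and the 1 that rose (13.5 points), and Mpo, the myeloperoxidase of neutrophil granules, had 1 that fell by 10.7 points. The macrophage list had 48.4% of 93 windows lower and 0 DMRs, and the cytotoxic lymphocyte list 25.9% of 27 lower and 0 DMRs. The mast cell and basophil list had 21.2% of 52 windows higher and 40.4% lower, with 1 DMR at Kit, the stem cell factor receptor, which rose by 11.1 points. All 11 windows that were higher were in Kit, and of the other 22 windows 0 were higher and 15 lower (68.2%). The Kit DMR was near the minimum and its groups overlapped by less than 1 point.

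Endothelial genes had 36.2% of 398 windows higher and 22.4% lower, 12 DMRs that rose and 1 that fell, and a median difference of 0.566 points (1.52 after centring). By gene, 19 of 25 had a median above 0 (8111 of 36005 over all gene symbols), and of 50 promoter windows 27 were higher and 5 lower, where 8.75% and 30.6% of all promoter windows were. Eng and Acvrl1, receptors of the BMP9 pathway in vessels, had 11 of 12 and 7 of 7 windows higher, and Kdr, the main VEGF receptor, 10 of 13. Epas1, which encodes the hypoxia factor HIF-2α, had 5 DMRs that rose, whose mean was 38.4 to 53.5% in PM and 54.1 to 62.6% in PM-OVA libraries. Egfl7, whose window holds the vessel microRNA genes Mir126a and Mir126b, rose from 51.4% ± 5.49 to 66.7% ± 3.74 (limma, adjusted p = 3.62e-05). The direction was not shared by all, since Emcn, Erg and Vwf had 10 of 14, 28 of 56 and 22 of 35 windows lower. The 1 DMR that fell was at Pecam1, which leukocytes also express, from 57.6% ± 3.73 to 41.7% ± 2.63 in a window that also covers Milr1, an inhibitory receptor of mast cells. Pecam1 also had a DMR that rose, by 11.6 points, and 10 of its 25 windows were higher and 4 lower.

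The alveolar lists had few large changes and a similar direction. For alveolar type I cells 27.1% of 107 windows were higher and 7.48% lower (median 1.04 points), and for alveolar type II cells 27.2% of 81 were higher and 8.64% lower (median 0.758 points). Clic5 rose by 10.97 points and Rtkn2 fell by 10.9, and the type II list had 0 DMRs. The other lung lists had shares of lower windows close to that of all windows. Airway genes had 38.2% of 76 windows lower and 1 DMR, at Muc5b, the mucin of conducting airways, which went from 60.7%, 66.3% and 66.6% to 49.6%, 54.96% and 56.8% (-11.03 points; limma, adjusted p = 1.61e-06). Muc5ac, the mucin induced in allergic airways, had 6 of 7 windows lower, the largest difference being -3.96 points. Smooth muscle and fibroblast genes had 37.6% of 173 windows lower and epithelial junction and keratin genes 33.9% of 165, both with 0 DMRs. Promoter windows of these 2 lists moved otherwise. Of 27 in smooth muscle and fibroblast genes 37.0% were higher and 18.5% lower, with a median difference of 1.27 points. Of 27 in junction and keratin genes 25.9% were higher and 29.6% lower, against 8.75% and 30.6% of all promoter windows. The list for other organs had 0 of 24 windows higher and 41.7% lower. The list of DNA methyltransferase and TET genes with Uhrf1, which guides Dnmt1 to newly copied DNA, had 18.5% of 151 windows higher and 22.5% lower, and the aryl hydrocarbon receptor pathway, which responds to combustion products, 16.3% of 86 higher and 45.3% lower, each with 0 DMRs. Arnt2, a partner subunit of that receptor family, had 24 of its 28 windows lower, and without it 20.7% of 58 windows were higher and 25.9% lower.

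**Figure D5:**
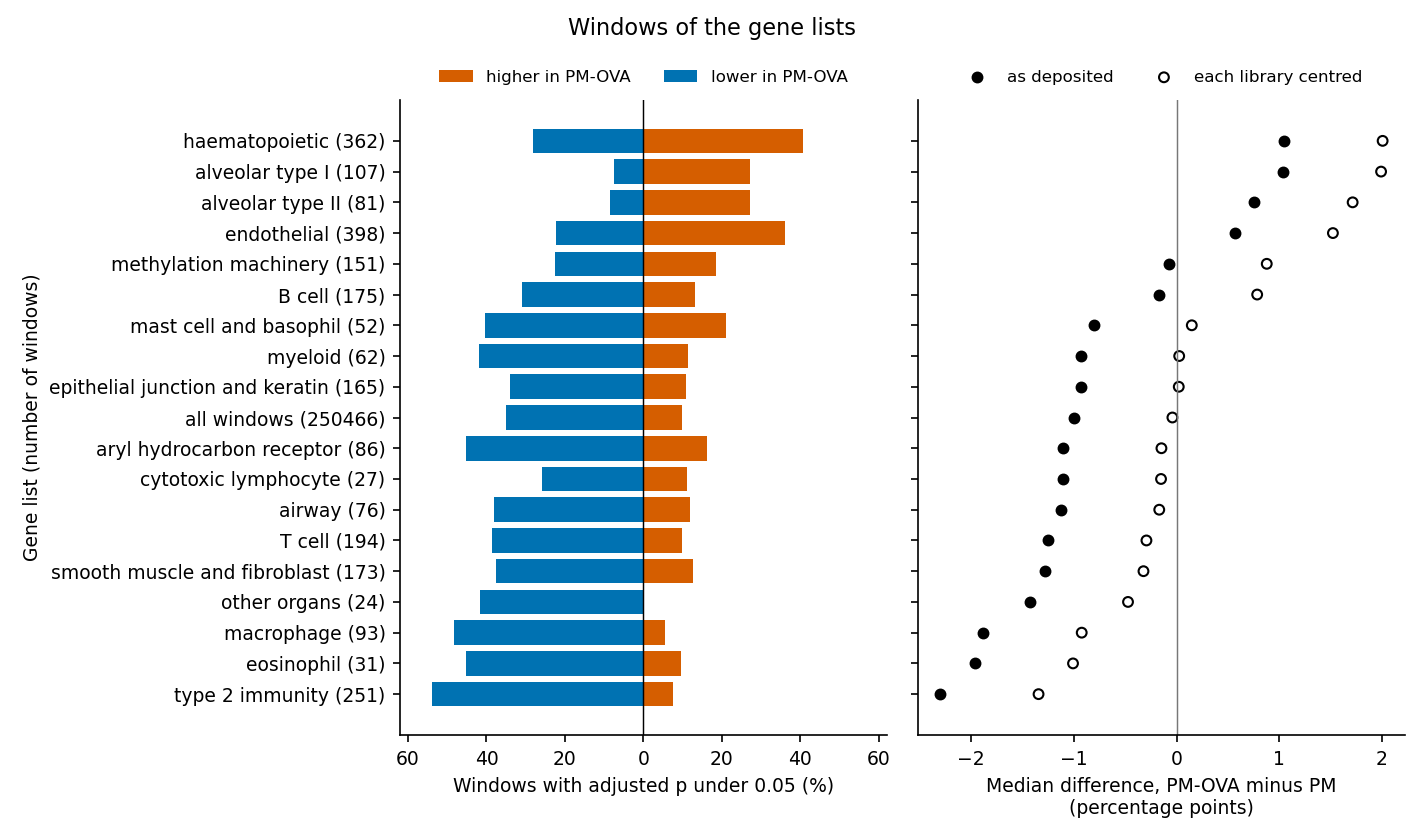
For each gene list (number of windows in brackets), the percent of windows higher or lower in PM-OVA than in PM offspring at an adjusted p under 0.05, and the median difference in percentage points as deposited and after centring. The haematopoietic, alveolar and endothelial lists have medians above 0 on both scales, but the haematopoietic median as deposited is 0.0103 points without Dock2. Type 2 immunity has the lowest median, at -2.30 points, which rests on Rora.

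Wider gene classes were described in the same way. Olfactory and vomeronasal receptor genes, which are silent in lung, had 49.7% of 2536 windows lower, 0.237% higher and 0 DMRs, with a median difference of -2.09 points (-1.14 after centring). Their windows are long, with a median of 11416 bp, and the longest quartile of all windows was much alike, with 53.2% lower and a median difference of -2.09 points. Collagen genes had 47.0% of 1005 windows lower and a median of -1.86 points. The predicted gene Gm26861 and Rp1, a gene of photoreceptors, had all 44 and all 38 of their windows lower and 0 DMRs. Interleukin and receptor genes, taken by name, had 9 DMRs that fell among 451 windows (2.00%, against 0.327% of all windows). They had 1 that rose (0.222%, against 0.271%). The falls included Il12a (14.1 points), Il17ra (13.6 and 11.3), Il6ra (12.2) and Il10 (10.9). Of the 9, 1 was at Il4i1 (11.5 points), which the name pattern includes although it is not an interleukin or receptor gene. After centring 6 of the 9 were left, with Il4i1 and without Il10. TNF superfamily genes had 4 that fell among 179 windows (2.23%, against 0.327% of all windows), with Tnf itself going from 61.7% ± 1.33 to 46.9% ± 3.90, and 1 that rose (0.559%). After centring 3 of the 4 were left. The windows of Mir155hg, host of a microRNA of activated lymphocytes, fell by 10.5 and 11.7 points. Of Wnt and Frizzled genes, Fzd7, Wnt6 and Fzd8 each had a DMR that rose, by 18.6, 11.3 and 11.1 points, which makes 0.904% of 332 windows against 0.271% of all windows, and 0 fell.

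Short sequence motifs were counted in the central 300 bases of each window, on both strands, as a description. The ETS core AGGAAG was in 34.8% of DMRs that rose, 39.9% of those that fell and 31.5% of all windows. The RUNX core TGTGGT was in 15.02%, 26.0% and 20.7%, and the AP-1 motif TGANTCA in 6.04%, 11.1% and 8.31%. The SP and KLF box GGGCGG was in 17.8%, 7.94% and 7.68%. Within the shortest quartile of windows the box was in 22.9%, 13.4% and 22.6%, so DMRs that rose held it about as often as other windows of that length.

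Across the 8 PM-OVA libraries, those with larger rises also had larger falls. The mean over the 679 DMRs that rose, relative to the PM mean, was 10.5 to 14.95 points, and the mean over the 819 that fell was -14.0 to -10.5 points. Replicates 1, 2, 7 and 8 had the largest values in both, and replicates 3, 4 and 6 the smallest. The 2 means were correlated (Pearson's r = -0.910, exact permutation p = 0.00136; Spearman's rho = -0.929, exact permutation p = 0.00223), also without the 2 libraries farthest from the median (r = -0.845). After centring r was -0.974 (exact permutation p = 0.00057) and rho -0.905 (exact permutation p = 0.00456), and adjusted p-values over these 2 relations were 0.00136 and 0.00114 for r. The DMRs had been called with the same libraries. With DMRs called between Sham-OVA and Sham offspring instead, 1218 that rose and 756 that fell, r was -0.944 (exact permutation p = 0.00104).

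Whether the OVA difference depended on the exposure of the dam was tested as an interaction over the 29 libraries, with Sham offspring (dams given saline) as the other arm. Of 250325 windows, 0 had an adjusted p under 0.05 (limma; lowest adjusted p = 0.221), and 18839 (7.53%) had an unadjusted p under 0.05. After centring each library it was 13229 (5.28%), near the share that an unadjusted threshold of 0.05 passes by chance. One library of the Sham group had a value in 1224 of the 1230 Y chromosome windows, which goes against its label as female, and without it the count was also 0. The 36 windows named by rule had the same direction in the Sham arm, with differences of 11 to 29.6 points where they rose and of -29.8 to -7.39 points where they fell, and an interaction adjusted p of at least 0.611. The HoxA DMRs that rose in PM offspring differed by 15.9 to 29.6 points in Sham offspring (lowest interaction adjusted p = 0.682). A p above the threshold does not show that the arms responded alike.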

How the data were processed

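Lung DNA was converted with the NEBNext Enzymatic Methyl-seq kit after unmethylated lambda DNA had been added. The submitters' notes name Trim Galore for trimming, DRAGEN for mapping and methylation calls, and GRCm38 as the genome. The deposited values are a percent methylation per window of gene sequence and library, which the authors summarised in SeqMonk with no normalisation between libraries described. Read numbers are not part of this table. Depth per value is thus unknown, and no counting error can be given, nor can a count model be used as the study did.

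Groups follow the sample titles. Windows of the sex chromosomes and 715 autosomal windows without a value in all 15 libraries were left out. Each percentage P was transformed to log2((P + 1)/(101 - P)), and groups were compared with limma (version 3.58.1, R 4.3.3, data.table, version 1.17.8), 2-sided, with Benjamini-Hochberg adjustment over all 250466 windows. Windows that also differed by 10 points or more were called DMRs at an adjusted p below 0.05. Single values per library were compared with exact permutation tests over the 6435 ways to divide the libraries (Python 3.11.15, numpy 2.4.6, pandas 2.3.3, scipy 1.17.1, pysam 0.24.0). Centring subtracted from each library the median over windows of its deviation from the mean of the 15 libraries. Genes, exons and promoters (2000 bp upstream of a start) came from GENCODE M21. The scripts were tested on simulated data.

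Members, gene lists and motifs were chosen with earlier results of these data known. Named windows were the 10 largest rises and 10 largest falls (1 window per gene), the largest DMR of the 5 genes with most DMRs in each direction, and the largest DMR of each gene list that had any. Other genes named were chosen after their values were seen, except the cell type markers. Replicate numbers did not pair the libraries, so no block was used. Alternatives were the scale and offset, the minimum difference, the threshold, other centrings, other sets of libraries or windows, and leaving out each library. Some items are not reported here.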

Additional observations from a re-analysis of the deposited data

Results flagged for a closer look

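Of 88 groups of 7 or 8 library values checked, 2 for each of the 36 named windows and 2 for each of the 8 window types, 8 had a library set apart from the rest by Dixon's criterion, where chance flags about 1 in 20 groups, or 4.4 of 88. PM replicate 1 was the library in 4 of the 8, and it also had the highest mean level of the 15 libraries (70.1%). It was at 24.8% at Carmil2 (the other PM libraries at 15.03 to 18.7%), at 35.6% at Smad7 (19.8 to 24.9%), at 56.8% at Rhoh (65.5 to 70.7%) and at 60.7% at Muc5b (65.4 to 66.6%), and in each of these windows it was the PM library nearest the PM-OVA libraries. PM replicate 3 was at 11.7% at Agap2 (21.0 to 27.7%) and PM replicate 7 at 78.2% at Cd79b (71.6 to 73.6%). Among PM-OVA libraries, replicate 2 was at 53.5% at the rising window of Galnt2l (44.0 to 48.5%) and replicate 8 at 61.9% at Clic5 (54.3 to 57.7%). All 8 windows were still DMRs when any 1 library was left out. What set these libraries apart was not tested.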

How the results depend on the processing

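Limits come first. One window is an average over a median of 50 CpGs, the read coverage of each value is not in the table, and the table holds windows in genes alone. The litter of each animal is not given. Centring decides the balance of small changes, and centred points cannot be read for windows near 0%.

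DMR counts followed the thresholds. With a minimum difference of 5 points there were 5334 DMRs higher and 9849 lower, with 15 points 126 and 116, and with an adjusted p under 0.000001, 40 and 355. On the percent scale, with other offsets, with a robust trend fit, with all 4 groups in the fit, with windows that had at least 3 values per group, without replicates 7 and 8 of PM-OVA (Rel), and under each centring, both counts stayed within 1.5 times those given. At any size, windows higher and lower numbered 48417 and 48134 with each library centred on its median deviation, 45960 and 51037 centred on its mean, and 47049 and 42843 centred within 10 midpoint classes. The shortest quartile rose by 0.956 points when the median over windows was used (exact permutation p = 0.00699). Of the list medians, those for B cell, methylation machinery, myeloid, mast cell and basophil, and junction and keratin genes went from below to above 0 with centring.

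Leaving out each library in turn gave 568 to 835 DMRs higher (lowest without PM replicate 5, highest without PM replicate 1) and 776 to 893 lower, and 21397 to 26129 windows higher and 79014 to 89679 lower at any size. The mean difference was -1.07 to -0.835 points. By length quartile from short to long it was 0.0211 to 0.167, -0.804 to -0.559, -1.36 to -1.10 and -2.16 to -1.84, and in promoters, exons and introns -0.991 to -0.788, -0.852 to -0.622 and -1.40 to -1.13.

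The replicate numbers were shared by the groups, but deviations of same-numbered libraries correlated at only -0.0538 to 0.0792, so the numbers do not pair them. With the number as a block there were 637 DMRs higher and 781 lower, and a mean difference of -0.930 points. The 36 named windows kept their direction under 26 settings each, and only Kit (9.81 points without PM replicate 5) and Muc5b (-9.997 points without replicates 7 and 8) fell short of 10 points. The interaction count of 0 held with centring, without the Rel libraries and without the Sham library with Y chromosome values, settings chosen after seeing the data, as were the centred and Sham-called versions of the correlation.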
